A study of Mus musculus with 8 samples.

Results

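The genes described here serve protein secretion by plasma cells and the unfolded protein response of the endoplasmic reticulum. They were chosen from a list of 42 gene symbols, matched to the gene symbols of the array's annotation, and for each gene the transcript cluster (the group of probes that stands for a gene) with the highest mean over the 8 arrays was kept. Of the 42 genes, 40 were found among the 22206 transcript clusters of the array; *Pdia4* and *Manf* were not analysed here. Their levels were read in whole spleen RNA from C57BL/6 mice of 2 groups with 4 samples each, on Clariom S HT arrays. The control animals were homozygous for a knock-in allele that both groups shared; the lymphoma-bearing animals carried the same knock-in together with *Vav1*DC/DC, a gene-edited *Vav1* on both alleles that encodes a VAV1 protein cut short within its C-terminal SH3 domain. Both edits are germline changes, so every cell of the spleen carried them, and every array animal with the edited *Vav1* also bore a lymphoma, so the effect of the allele and that of the tumour cannot be told apart. The age of the array animals is not given in the sources used here; the methods name female animals for studies in vivo, without a word on the array samples. The labels give 4 samples a group, whereas a legend of the study speaks of triplicates, and the labels speak of spleen where the design text speaks of splenocytes.

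Plasma cells release antibody in large amounts, and their endoplasmic reticulum holds the machinery that takes in, folds, checks and exports it. When unfolded protein builds up there, 3 sensors in the membrane respond: IRE1 (gene *Ern1*) splices the messenger of the transcription factor XBP1, ATF6 is cut to free a transcription factor, and PERK (gene *Eif2ak3*) slows translation while favouring that of ATF4. XBP1 and ATF6 then raise chaperones, disulfide isomerases, translocation and degradation genes, many of them through a promoter element called ERSE, whereas ATF4 raises genes of amino acid supply and of cell stress through another, the CARE. In the spleen the genes are used by plasma cells first of all, but other secreting and activated cells use most of them too. RNA from a whole organ cannot tell fewer cells of a type from less RNA per cell, and a cluster of probes for a whole gene does not read the splicing of *Xbp1*.

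To see which of these elements the members carry, RefSeq promoters (assembly GRCm38.p6; 250 bases before to 50 after the annotated gene start) were searched on both strands. A window was at hand for 33 of the 40 measured members. The ERSE, spelled CCAAT, a gap of 9 bases and CCACG, was found in 9 of the 33 (27.3%) and in 37 of 27025 genes overall (0.137%). The related ERSE-II, spelled ATTGG, 1 base and CCACG, was found in 2 of 33 (6.06%) against 12 genes overall (0.0444%). Both share CCACG, and ATTGG is CCAAT read on the other strand, but no site matched both. The UPRE, TGACGTGG, was in no member's window and in 193 genes overall (0.714%), and the CARE, TGATGNAA, was in 3 of 33 (9.09%) against 1219 genes overall (4.51%). The genes were listed as genes of this response, so these shares describe the list. A match of letters is neither a bound site nor a cause, and a window without one says only that these letters are not in it.

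The windows of the 3 members that rose most in lymphoma spleens among those with an ERSE are shown, so that the element can be seen in its place; *Creld2* lies at chr15:88819396-88819695 (plus strand), *Calr* at chr8:84846882-84847181 (minus strand) and *Derl3* at chr10:75893148-75893447 (plus strand), each read 5′ to 3′ in the direction of the gene with the whole match in capitals, which here lies on the opposite strand and so reads CGTGG first.
Creld2: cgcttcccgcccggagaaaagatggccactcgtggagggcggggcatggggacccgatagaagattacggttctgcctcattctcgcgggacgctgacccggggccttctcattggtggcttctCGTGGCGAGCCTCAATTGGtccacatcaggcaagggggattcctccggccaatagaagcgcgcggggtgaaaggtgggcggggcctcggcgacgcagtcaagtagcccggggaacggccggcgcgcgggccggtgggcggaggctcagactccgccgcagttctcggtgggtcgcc
Calr: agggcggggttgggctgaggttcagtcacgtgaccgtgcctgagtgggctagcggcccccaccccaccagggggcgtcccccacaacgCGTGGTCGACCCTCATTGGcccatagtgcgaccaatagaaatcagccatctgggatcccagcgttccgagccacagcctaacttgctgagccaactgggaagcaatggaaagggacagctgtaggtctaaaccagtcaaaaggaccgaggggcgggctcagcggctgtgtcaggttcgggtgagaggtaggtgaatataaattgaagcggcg
Derl3: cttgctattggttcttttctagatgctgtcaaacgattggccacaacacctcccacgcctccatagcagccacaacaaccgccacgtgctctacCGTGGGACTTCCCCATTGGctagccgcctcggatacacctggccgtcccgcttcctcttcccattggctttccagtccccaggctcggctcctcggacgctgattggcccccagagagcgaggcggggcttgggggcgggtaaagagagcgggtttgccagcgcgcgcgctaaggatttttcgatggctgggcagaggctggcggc

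Set side by side on the strand that carries the motif, with 10 bases on each side and the fixed letters in capitals, the ERSE matches can be compared base by base. They are ordered by the fold change of the gene, and the last entries, *Hsp90b1* with both of its matches and *Syvn1*, are genes with the element that were not called changed.
Creld2: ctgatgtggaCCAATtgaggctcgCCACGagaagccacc
Calr: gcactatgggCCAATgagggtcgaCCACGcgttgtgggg
Derl3: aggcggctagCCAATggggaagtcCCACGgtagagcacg
Pdia6: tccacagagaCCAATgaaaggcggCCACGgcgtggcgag
Hspa5: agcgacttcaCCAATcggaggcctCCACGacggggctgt
Hsp90b1: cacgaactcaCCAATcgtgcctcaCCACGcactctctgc
Hsp90b1: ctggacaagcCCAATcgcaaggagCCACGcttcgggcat
Syvn1: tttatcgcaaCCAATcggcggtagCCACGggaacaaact
*Dnajc3* and *Canx* held the remaining matches. The ERSE-II of *Herpud1* and *Dnajb11* and the CARE of *Chac1* and *Trib3*, a pair of ATF4 targets that were not called changed, are printed in the same way.
Herpud1: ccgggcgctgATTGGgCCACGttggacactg
Dnajb11: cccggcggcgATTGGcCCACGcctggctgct
Chac1: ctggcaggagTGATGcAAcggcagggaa
Trib3: cccgcccggcTGATGtAAacctgagcta

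**Figure D1:**
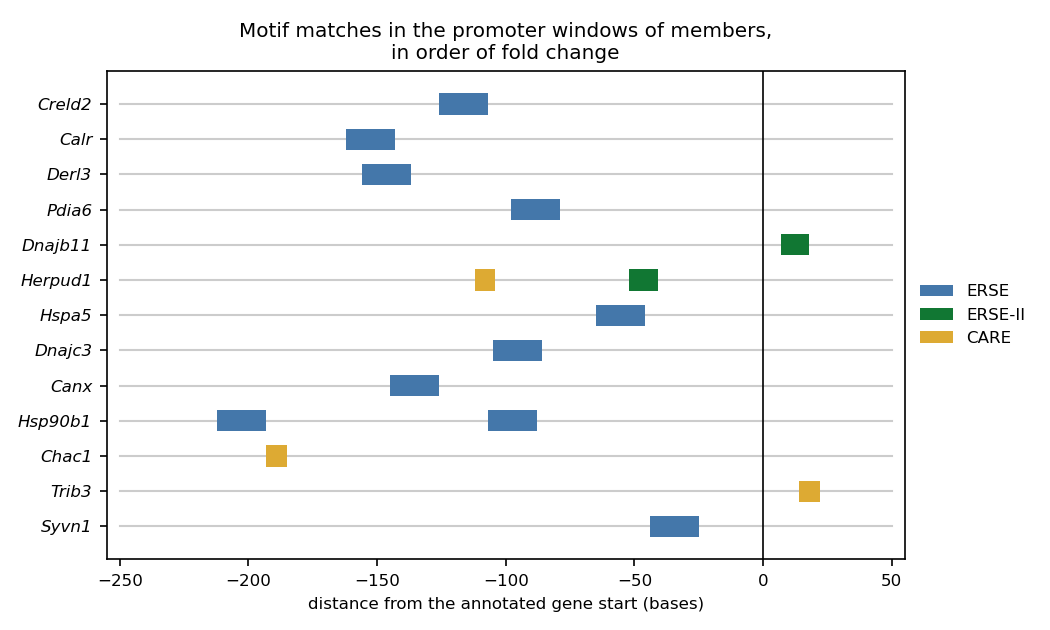
Position of each motif match (coloured bars) in the promoter windows of the 13 members with a match, as the distance in bases from the annotated gene start, with the genes in order of their log2 fold change from the top. The ERSE matches lie between 212 and 26 bases before the start.

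The levels reported below are log2 values of normalised probe signal, so a difference of 1 is a doubling, and each fold change is the mean of the lymphoma group minus that of the control group from 1 limma fit over all 22206 clusters. A gene is called changed at a Benjamini-Hochberg adjusted p of at most 0.05. Levels of single genes were not compared with each other, because each cluster has its own probes. Mean levels were ranked to choose the cluster of a gene and to tell bright clusters from dim ones. All but 1 of the called members were higher in lymphoma spleens. Of the 40 members 29 were called higher (72.5%), 1 was called lower and 10 were not called; over all clusters 18.2% were called higher and 17.2% lower. Most members are bright on the array, 36 of 40 lying above the median cluster, and among the 11103 clusters above the median 30.0% were called higher and 22.2% lower. The groups did not overlap, every lymphoma array being above every control array, for 29 members, against 18.0% of all clusters; the opposite held for 2 members (*Eif2ak3* and *Syvn1*), against 16.7% of all clusters. The median log2 fold change of the members was 0.45, with a range of -0.32 to 1.23, where that of all clusters was -0.06. At least 2-fold rises were few: *Creld2*, *Sdf2l1* and *Ssr2*, that is 3 of 40, where 3.03% of all clusters were called with such a rise.

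**Figure D2:**
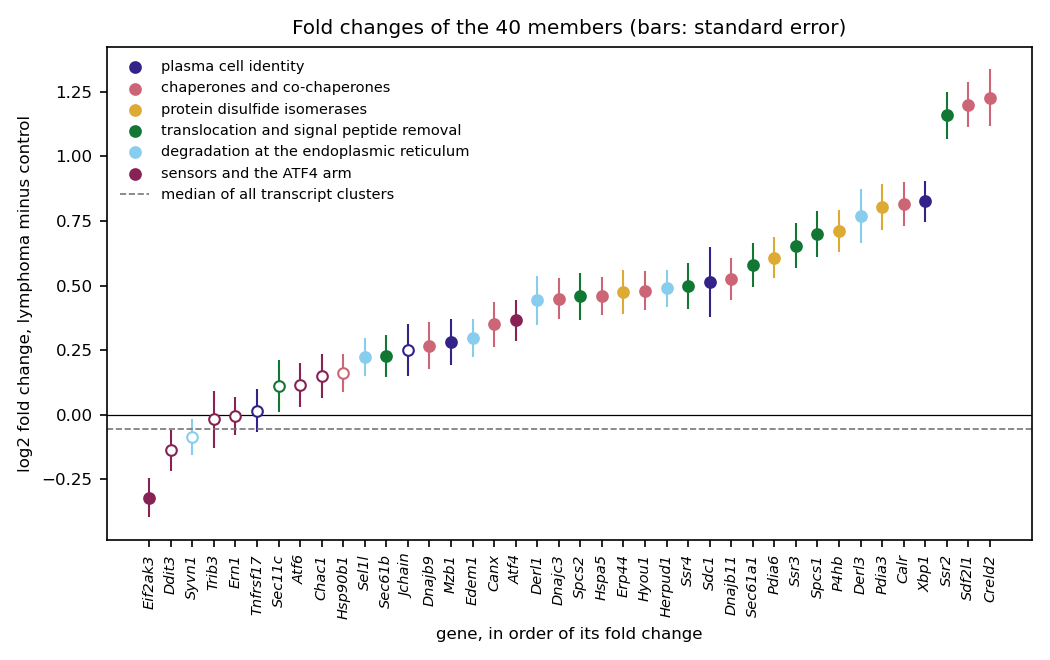
Log2 fold change (lymphoma minus control) of each of the 40 members in ascending order, with its standard error, coloured by role; filled points were called at an adjusted p of at most 0.05 and the dashed line is the median of all clusters (-0.06). Sensors and the ATF4 arm fill much of the left end, and *Ssr2*, *Sdf2l1* and *Creld2* stand apart on the right between 1.16 and 1.23.

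The rise was not even over the 6 roles into which the members were sorted. All 4 measured protein disulfide isomerases, 9 of 10 chaperones and co-chaperones, 7 of 8 genes of translocation and signal peptide removal, and 5 of 6 genes of degradation at the endoplasmic reticulum were called higher. Only 1 of 7 genes of the sensors and the ATF4 arm was higher and 1 was lower, which is near the shares of all clusters (18.2% higher, 17.2% lower). Of 5 genes of plasma cell identity 3 were higher. The median log2 fold change was 0.66 for the disulfide isomerases, 0.54 for translocation, 0.47 for the chaperones, 0.37 for degradation, 0.28 for plasma cell identity and -0.01 for the sensors and the ATF4 arm. The difference between roles was not tested.

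The mean over all 40 members lay between 9.49 and 9.62 on the control arrays and between 9.95 and 10.02 on the lymphoma arrays. For the chaperones the mean per array ran from 10.07 to 10.16 in control and from 10.67 to 10.77 in lymphoma spleens, and the groups did not overlap. For the sensors and the ATF4 arm it ran from 8.86 to 8.92 in control and from 8.89 to 8.95 in lymphoma spleens, and the groups overlapped. Replicates were close: the SD of a member within a group lay between 0.0049 and 0.28, and it was the larger in the control group for 29 of 40 members.

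**Figure D3:**
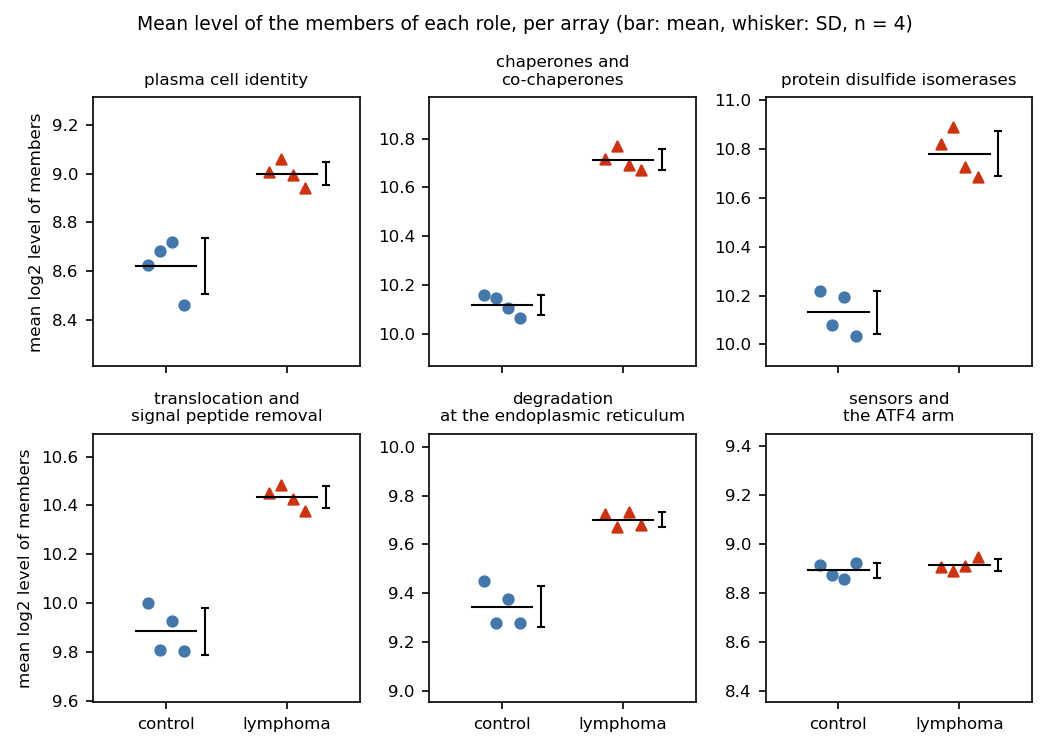
Mean log2 level of the measured members of each role on each array (points), with the group mean (bar) and SD (whisker, n = 4); every panel spans the same range on its vertical axis. Control and lymphoma arrays are apart for 5 roles and overlap for the sensors and the ATF4 arm.

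Among the genes of plasma cell identity, *Xbp1*, the transcription factor that enlarges the secretory apparatus of plasma cells, changed most. *Xbp1* measured 10.01, 10.03, 10.01 and 9.78 on control arrays 1 to 4 and 10.83, 10.75, 10.76 and 10.80 on lymphoma arrays 1 to 4. All lymphoma arrays lay above all control arrays, and control array 4 was the lowest by a clear gap. The log2 fold change was 0.83 ± 0.08 (SE), adjusted p = 3.99e-06, or 1.77-fold. *Sdc1*, the surface proteoglycan CD138 used to sort plasma cells, measured 6.65, 6.92, 7.19 and 6.58 on control arrays 1 to 4 and 7.31, 7.57, 7.07 and 7.44 on lymphoma arrays 1 to 4. The control arrays were widely spread and control array 3 lay above lymphoma array 3, so the groups overlapped although the fit called the gene higher (log2 fold change 0.51 ± 0.14 (SE), adjusted p = 0.0103). *Mzb1*, a cofactor of the chaperones that assemble immunoglobulin, measured 9.49, 9.33, 9.47 and 9.18 on control arrays 1 to 4 and 9.68, 9.57, 9.77 and 9.57 on lymphoma arrays 1 to 4. Here the groups did not overlap, and the rise was small at 0.28 ± 0.09 (SE), adjusted p = 0.0269. The call of *Mzb1* was lost without control array 2 (adjusted p = 0.0602), control array 4 (0.0812), lymphoma array 1 (0.0658) or lymphoma array 3 (0.0778).

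The other genes of plasma cell identity were not called. *Jchain*, the chain that joins the units of IgM and IgA, measured 11.03, 11.05, 10.98 and 10.78 on control arrays 1 to 4 and 11.24, 11.22, 11.41 and 10.98 on lymphoma arrays 1 to 4. Lymphoma array 4 fell within the control range and the remaining lymphoma arrays lay above it. The log2 fold change was 0.25 ± 0.10 (SE), adjusted p = 0.0696, and without lymphoma array 4 it was 0.33 with an adjusted p of 0.0187. With each array left out in turn, the log2 fold change of *Jchain* ran from 0.18 to 0.33. Its adjusted p then ran from 0.0187 to 0.19. *Tnfrsf17*, the receptor BCMA on which long-lived plasma cells depend, measured 5.95, 6.07, 5.97 and 5.99 on control arrays 1 to 4 and 5.96, 6.20, 5.96 and 5.92 on lymphoma arrays 1 to 4. Lymphoma array 2 lay above and lymphoma array 4 below all control arrays, and the log2 fold change was 0.02 ± 0.08 (SE), adjusted p = 0.902.

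**Figure D4:**
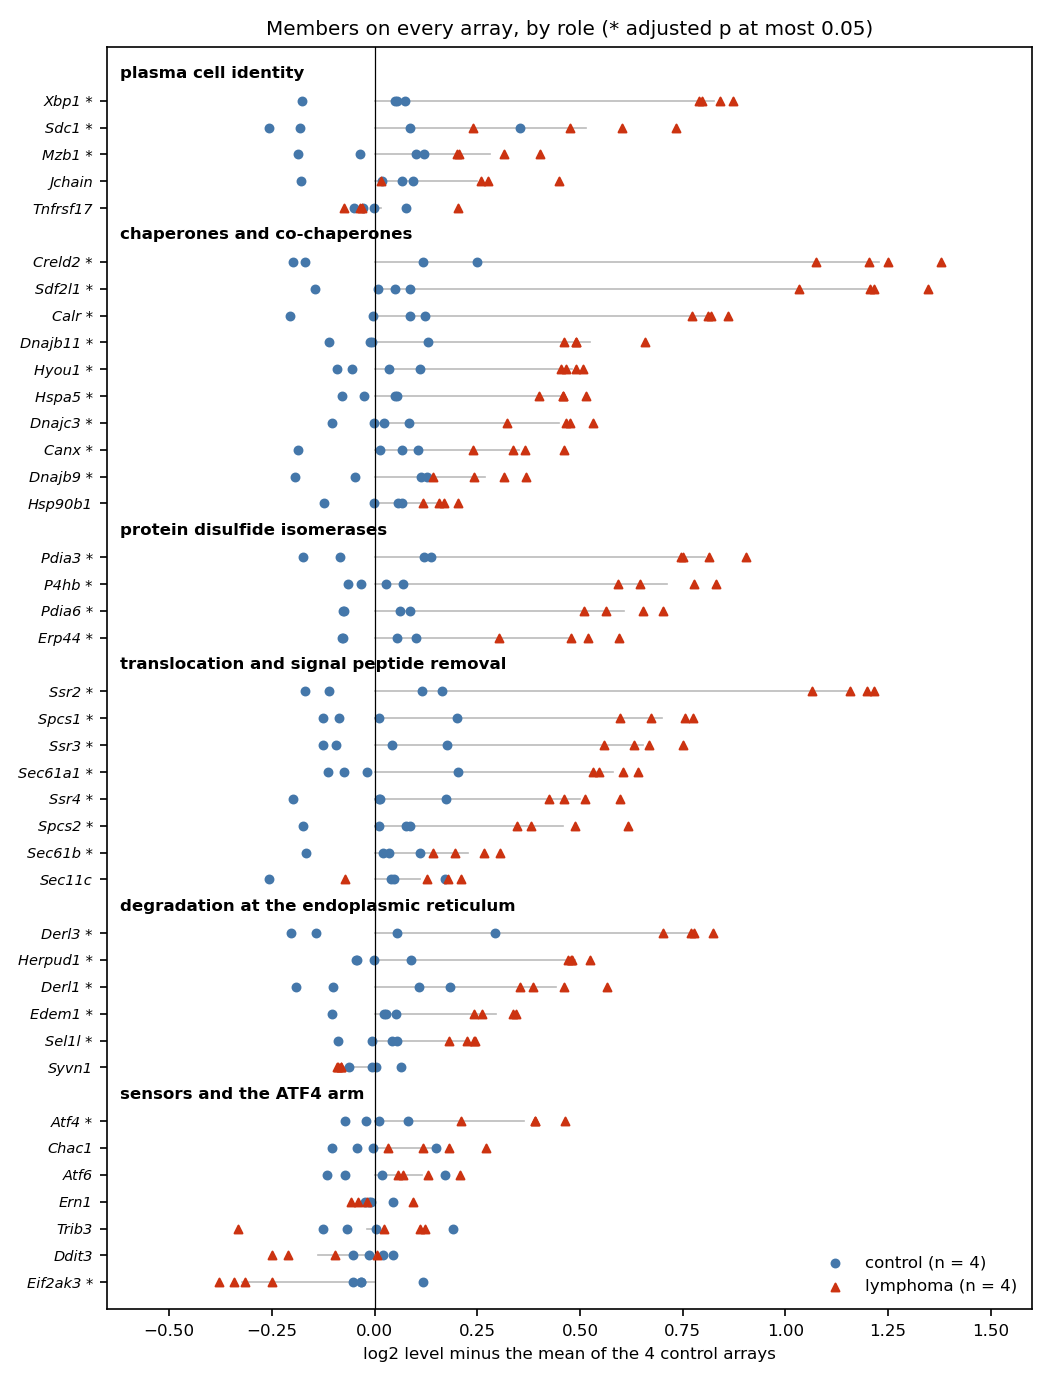
Log2 level of every member on each of the 8 arrays, given as the difference from the mean of its 4 control arrays (circles control, triangles lymphoma), by role and in order of fold change; an asterisk marks an adjusted p of at most 0.05. The lymphoma triangles are to the right of all control circles for 29 members, and to the left of them for *Eif2ak3* and *Syvn1*.

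The chaperones and co-chaperones hold folding proteins in the endoplasmic reticulum, and the greatest rises of the whole list were found here. *Creld2*, a stress-induced protein of the endoplasmic reticulum whose promoter is printed above, measured 8.65, 8.78, 8.33 and 8.36 on control arrays 1 to 4 and 9.91, 9.73, 9.78 and 9.61 on lymphoma arrays 1 to 4. *Sdf2l1*, a partner of the DnaJ proteins that prevents clumping of unfolded proteins, measured 8.68, 8.60, 8.45 and 8.64 on control arrays 1 to 4 and 9.80, 9.94, 9.63 and 9.81 on lymphoma arrays 1 to 4. On every lymphoma array both genes lay more than 1 above the mean of the control arrays, so the groups did not overlap. Their log2 fold changes were 1.23 ± 0.11 (SE), adjusted p = 1.97e-06 for *Creld2* and 1.20 ± 0.09 (SE), adjusted p = 3.52e-07 for *Sdf2l1*, that is 2.34-fold and 2.3-fold. *Calr*, calreticulin, which binds glycoproteins during folding and stores calcium, measured 11.62, 11.32, 11.65 and 11.52 on control arrays 1 to 4 and 12.34, 12.35, 12.30 and 12.39 on lymphoma arrays 1 to 4. The lymphoma arrays lay close together, control array 2 was the lowest, and the log2 fold change was 0.82 ± 0.09 (SE), adjusted p = 7.76e-06.

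The remaining chaperones had smaller fold changes than *Calr*. *Hspa5*, the central chaperone BiP, lay at 12.06 to 12.19 in control and 12.54 to 12.65 in lymphoma spleens and rose by 0.46 (adjusted p = 0.000272). *Hyou1*, a nucleotide exchange factor for BiP, rose by 0.48, and the DnaJ co-chaperones *Dnajb11*, *Dnajc3* and *Dnajb9* by 0.52, 0.45 and 0.27 on the log2 scale. *Canx*, calnexin, the membrane-bound relative of calreticulin, rose by 0.35, less than the 0.82 of *Calr*; that difference was not tested. *Hsp90b1*, the chaperone GRP94, was the only chaperone not called, with a log2 fold change of 0.16 ± 0.07 (SE), adjusted p = 0.115, although its levels of 12.04 to 12.23 in control and 12.28 to 12.37 in lymphoma spleens did not overlap. The call of *Dnajb9* was lost without control array 3 (adjusted p = 0.103), control array 4 (0.0824), lymphoma array 1 (0.0886), lymphoma array 2 (0.103) or lymphoma array 3 (0.0604).

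Protein disulfide isomerases form and reshuffle the disulfide bonds of secreted proteins, antibodies among them. *Pdia3*, which works with calreticulin and calnexin on glycoproteins, measured 10.96, 10.74, 10.94 and 10.65 on control arrays 1 to 4 and 11.63, 11.72, 11.57 and 11.57 on lymphoma arrays 1 to 4. *P4hb*, the archetypal disulfide isomerase, measured 9.21, 9.17, 9.11 and 9.08 on control arrays 1 to 4 and 9.92, 9.97, 9.79 and 9.74 on lymphoma arrays 1 to 4. *Pdia6*, an isomerase that binds BiP and carries an ERSE in its window, measured 10.79, 10.63, 10.77 and 10.63 on control arrays 1 to 4 and 11.35, 11.40, 11.21 and 11.27 on lymphoma arrays 1 to 4. In all of them the lymphoma arrays stood above the control arrays without overlap. Control arrays 1 and 3 were the higher controls for *Pdia3* and *Pdia6*, and not for *P4hb*. The log2 fold changes were 0.80 ± 0.09 (SE), adjusted p = 1.31e-05 for *Pdia3*, 0.71 ± 0.08 (SE), adjusted p = 1.51e-05 for *P4hb* and 0.61 ± 0.08 (SE), adjusted p = 5.32e-05 for *Pdia6*. *Erp44*, which retains unfinished disulfide-linked proteins and IgM subunits, rose by 0.47 (adjusted p = 0.000746), with levels of 9.78 to 9.96 in control and 10.16 to 10.45 in lymphoma spleens.

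Translocation brings the growing chain through the Sec61 channel, and the signal peptidase complex then cuts off its signal. *Ssr2*, a subunit of the translocon-associated protein complex, measured 9.77, 9.44, 9.72 and 9.49 on control arrays 1 to 4 and 10.81, 10.82, 10.67 and 10.76 on lymphoma arrays 1 to 4. It was 2.23-fold higher, with a log2 fold change of 1.16 ± 0.09 (SE), adjusted p = 6.46e-07. Of its partners in that complex, *Ssr3* measured 10.18, 9.91, 10.05 and 9.88 on control arrays 1 to 4 and 10.67, 10.76, 10.64 and 10.56 on lymphoma arrays 1 to 4. The groups did not overlap, and the log2 fold changes were 0.65 ± 0.09 (SE), adjusted p = 6.14e-05 for *Ssr3* and 0.50 (adjusted p = 0.000679) for *Ssr4*. *Spcs1*, a subunit of the signal peptidase complex, measured 9.67, 9.34, 9.48 and 9.38 on control arrays 1 to 4 and 10.22, 10.24, 10.14 and 10.06 on lymphoma arrays 1 to 4. Its log2 fold change was 0.70 ± 0.09 (SE), adjusted p = 3.83e-05, and that of its partner *Spcs2* was 0.46 (adjusted p = 0.00136). Control arrays 1 and 3 were again the higher controls for *Ssr2*, *Ssr3* and *Spcs1*.

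The channel itself and the catalytic subunit of the peptidase moved unevenly. *Sec61a1*, which forms the channel, rose by 0.58 (adjusted p = 0.000136), with levels of 10.64 to 10.95 in control and 11.28 to 11.39 in lymphoma spleens. *Sec61b*, a small subunit beside it, rose by 0.23 only. Its call, at an adjusted p of 0.0474, was lost without any of the arrays except control array 2, with adjusted p between 0.0539 (lymphoma array 1) and 0.127 (control array 3); the others were control array 1 (0.0722), control array 4 (0.068) and lymphoma arrays 2 (0.108), 3 (0.071) and 4 (0.101). *Sec11c*, a catalytic subunit of the signal peptidase, was the member of the role not called, with levels of 9.60 to 10.03 in control and 9.79 to 10.07 in lymphoma spleens and a log2 fold change of 0.11 ± 0.10 (SE), adjusted p = 0.425.

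Degradation at the endoplasmic reticulum returns proteins that fail to fold to the cytosol. *Derl3*, a derlin of the exit channel typical of secretory cells, measured 7.60, 7.10, 7.36 and 7.17 on control arrays 1 to 4 and 8.13, 8.01, 8.09 and 8.08 on lymphoma arrays 1 to 4. The lymphoma arrays lay close together and above the widely spread controls, of which array 1 was the highest, and the log2 fold change was 0.77 ± 0.10 (SE), adjusted p = 6.84e-05. *Herpud1*, which gathers the ubiquitin ligase complex and carries both an ERSE-II and a CARE match, measured 10.44, 10.31, 10.35 and 10.31 on control arrays 1 to 4 and 10.84, 10.83, 10.83 and 10.88 on lymphoma arrays 1 to 4. *Derl1*, a related derlin, measured 9.72, 9.34, 9.64 and 9.43 on control arrays 1 to 4 and 9.99, 9.92, 10.10 and 9.89 on lymphoma arrays 1 to 4. Neither gene had overlapping groups, and the log2 fold changes were 0.49 ± 0.07 (SE), adjusted p = 0.000135 for *Herpud1* and 0.44 ± 0.10 (SE), adjusted p = 0.00281 for *Derl1*.

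*Edem1*, which marks misfolded glycoproteins for removal, rose by 0.30 (adjusted p = 0.00708). The genes of the ligase complex itself were nearer to no change. *Sel1l*, its scaffold, rose by 0.22, with levels of 9.19 to 9.33 in control and 9.46 to 9.52 in lymphoma spleens, a call lost without control array 2 (adjusted p = 0.0543), control array 3 (0.0727), lymphoma array 1 (0.0688), lymphoma array 2 (0.0635) or lymphoma array 3 (0.0621). *Syvn1*, its ubiquitin ligase HRD1, lay at 9.33 to 9.46 in control and 9.30 to 9.31 in lymphoma spleens, lower on every lymphoma array, but the log2 fold change of -0.09 ± 0.07 (SE), adjusted p = 0.375 was not called.

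None of the sensors was called higher. *Eif2ak3*, the sensor PERK, measured 10.54, 10.37, 10.39 and 10.39 on control arrays 1 to 4 and 10.11, 10.04, 10.08 and 10.17 on lymphoma arrays 1 to 4. It was the only member called lower, with no overlap and a log2 fold change of -0.32 ± 0.08 (SE), adjusted p = 0.00474, or 1.25-fold lower. *Ern1*, the sensor IRE1, measured 9.09, 9.11, 9.10 and 9.16 on control arrays 1 to 4 and 9.10, 9.06, 9.21 and 9.07 on lymphoma arrays 1 to 4. *Atf6*, the precursor of the ATF6 factor, measured 9.996, 10.28, 10.13 and 10.04 on control arrays 1 to 4 and 10.32, 10.24, 10.17 and 10.18 on lymphoma arrays 1 to 4. Neither was called, and the groups overlapped for both; the log2 fold changes were -0.01 ± 0.07 (SE), adjusted p = 0.965 for *Ern1* and 0.12 ± 0.08 (SE), adjusted p = 0.312 for *Atf6*. These values are of messenger RNA and say nothing of the splicing, cleavage or phosphorylation through which the sensors act.

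Below PERK, *Atf4*, whose translation the sensor favours, measured 9.79, 9.74, 9.82 and 9.89 on control arrays 1 to 4 and 10.27, 10.20, 10.20 and 10.02 on lymphoma arrays 1 to 4. The groups did not overlap and the log2 fold change was 0.36 ± 0.08 (SE), adjusted p = 0.00309. The other members of the ATF4 arm were not called. *Ddit3*, the factor CHOP, which promotes cell death under lasting stress, measured 9.10, 9.07, 9.03 and 9.12 on control arrays 1 to 4 and 8.98, 8.83, 8.87 and 9.09 on lymphoma arrays 1 to 4. *Trib3*, a pseudokinase that restrains ATF4 signalling, measured 7.41, 7.09, 7.15 and 7.22 on control arrays 1 to 4 and 6.89, 7.34, 7.24 and 7.33 on lymphoma arrays 1 to 4. *Chac1*, which breaks down glutathione, measured 6.49, 6.45, 6.39 and 6.64 on control arrays 1 to 4 and 6.67, 6.53, 6.61 and 6.76 on lymphoma arrays 1 to 4. The groups overlapped for all of them, with log2 fold changes of -0.14 ± 0.08 (SE), adjusted p = 0.204 for *Ddit3*, -0.02 ± 0.11 (SE), adjusted p = 0.917 for *Trib3* and 0.15 ± 0.08 (SE), adjusted p = 0.188 for *Chac1*. *Ddit3* is the only member with 2 clusters on the array, and the dimmer of them had a log2 fold change of -0.06. *Chac1* was called under 1 other normalisation only, cyclic loess (log2 fold change 0.23, adjusted p = 0.0422).

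Members were called higher both with and without a promoter match. Of the 11 members with an ERSE or ERSE-II 9 were called higher (81.8%), and of the 22 with a window and no such match 15 were higher (68.2%) and 1 was lower; the median log2 fold changes were 0.49 and 0.33. The difference was not tested. *Sdf2l1* rose among the most with no match in its window, and *Syvn1* had a match and was lower on every lymphoma array.

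In 5 of 6 lists of other genes of the same pathways more genes were called higher than lower, each with a median below that of the members. Of 24 other folding enzymes 12 were called higher and 1 lower (median log2 fold change 0.19). *Prkcsh*, a subunit of the glucosidase that trims N-glycans, rose by 1.04, the prolyl isomerase *Fkbp2* by 1.04 and the disulfide isomerase *Txndc5* by 0.93. *Ero1b*, an oxidase that recharges the disulfide isomerases, went the other way: it lay at 10.29 to 10.42 in control and 9.50 to 9.76 in lymphoma spleens and fell by 0.72 (adjusted p = 1.42e-05). Of 26 other genes of translocation and N-glycosylation 14 were higher and 1 lower (median 0.29). Leading them were the oligosaccharyltransferase subunits *Rpn2*, *Rpn1* and *Ddost* at 1.03, 0.99 and 0.83, while *Sec63*, which helps the Sec61 channel, was -0.33.

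Of 17 other degradation genes 8 were higher and 1 lower (median 0.20), with *Vcp*, the segregase that pulls proteins out of the membrane, at 0.75, *Edem2* at 0.67 and the ubiquitin-conjugating enzyme *Ube2j1* at 0.55, and with *Herpud2* at -0.23. The call of *Herpud2* was lost without control array 1 (adjusted p = 0.101), 2 (0.0786) or 3 (0.0716) or lymphoma array 1 (0.0752), 2 (0.103) or 4 (0.0778). Transport between the endoplasmic reticulum and the Golgi apparatus gave 16 of 26 higher and 1 lower (median 0.39). The cargo receptor *Surf4* rose by 1.06, the coat regulator *Arfgap3* by 0.85 and the retrieval receptor *Kdelr2* by 0.81, and *Mia2*, an organiser of exit sites, was -0.26. The call of *Mia2* was lost without control array 1 (adjusted p = 0.0799) or 3 (0.0551) or lymphoma array 1 (0.0709) or 4 (0.0806). The share called higher was above the 18.2% of all clusters in each of these groups.

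Most of the other genes of the ATF4 arm were called higher, where *Ddit3*, *Trib3* and *Chac1* were not called. Of 29 measured 20 were higher and 2 lower, with a median of 0.42. Over all clusters 18.2% were called higher and 17.2% lower, and among those above the median level 30.0% and 22.2%. The highest rises were those of *Psat1*, an enzyme of serine synthesis, at 1.48, *Wars*, the tryptophanyl-tRNA synthetase, at 1.43, and *Slc7a11*, the cystine transporter, at 1.41. *Psat1* lay at 8.25 to 8.46 in control and 9.72 to 9.97 in lymphoma spleens. *Ddit4*, an inhibitor of mTOR signalling, was -0.39, and *Atf5*, a relative of ATF4, was -0.28, a call lost without any single array except lymphoma array 3 (adjusted p between 0.0554 and 0.143).

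Other plasma cell genes were called in both directions. Of 14 measured genes of plasma cells 3 were higher and 4 lower (median 0.08), where 18.2% of all clusters were called higher and 17.2% lower. Among clusters above the median level the shares were 30.0% and 22.2%, so these counts are not far from those of clusters at large. The 10 immunoglobulin genes listed with them and *Cd38* were not analysed here. *Prdm1*, the factor Blimp-1 that drives plasma cell differentiation and is also made by T cells, lay at 5.77 to 6.27 in control and 7.36 to 7.74 in lymphoma spleens and rose by 1.59 (adjusted p = 2.83e-07). *Ell2*, an elongation factor of immunoglobulin transcription, rose by 0.62 and the surface receptor *Slamf7* by 0.61. *Irf4*, which plasma cells need, was -0.56 (adjusted p = 0.000273), and the receptor *Tnfrsf13b* was -0.48.

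**Figure D5:**
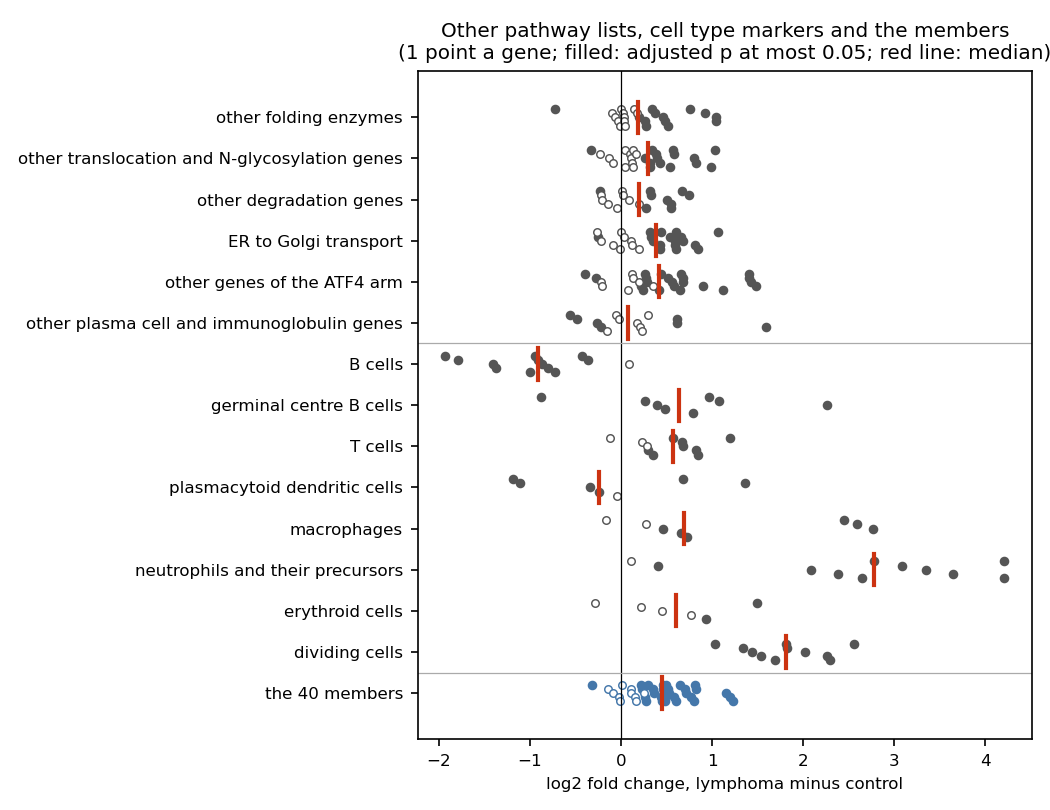
Log2 fold change (lymphoma minus control) of the measured genes of 6 other lists of the pathway, of 8 lists of cell type markers and of the 40 members, 1 point a gene, filled where called at an adjusted p of at most 0.05, with the median of each list as a red line. The median is 0.45 for the members, 1.81 for the genes of dividing cells, 2.77 for neutrophils and -0.91 for B cells.

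Marker genes of several cell types also differed between the groups, as read from RNA and not from cell counts. Over all clusters 18.2% were called higher and 17.2% lower. Among clusters above the median level the shares were 30.0% and 22.2%. Of 13 B cell markers 12 were lower (median -0.91), and the mean over the list lay between 11.35 and 11.41 on control and between 10.35 and 10.52 on lymphoma arrays; *Cr2*, the complement receptor of mature B cells, fell by 1.93. All 11 genes of dividing cells were higher (median 1.81, list mean 7.73 to 8.15 against 9.66 to 9.83), with the mitotic kinase *Bub1* at 2.56. Of 11 genes of neutrophils and their precursors 10 were higher (median 2.77, list mean 6.75 to 7.02 against 9.34 to 9.54), led by the granule gene *Ngp* at 4.21. Macrophage genes rose in 6 of 8 cases (median 0.69, list mean 8.96 to 9.08 against 10.18 to 10.28), with the complement gene *C1qc* at 2.77.

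T cell genes were higher in 8 of 11 cases (median 0.58, list mean 8.90 to 9.04 against 9.44 to 9.59), *Cd6* by 1.19. Germinal centre B cell genes were higher in 7 and lower in 1 of 8 (median 0.64, list mean 7.01 to 7.196 against 7.64 to 7.82), with *Mybl1* at 2.26. *Bcl6* of this list, at 0.27, is counted by the paper among the genes specific to angioimmunoblastic T cell lymphoma. The list is therefore not particular to B cells. Erythroid genes were higher in 2 of 6 (list mean 7.76 to 9.01 against 9.07 to 9.28), *Rhag* by 1.499, or by 0.95 without control array 2, its lowest array. Of 7 genes of plasmacytoid dendritic cells, which also have a large endoplasmic reticulum, 2 were higher, *Bst2* by 1.36, and 4 lower, *Ccr9* by -1.18 and *Siglech* by -1.10 (median -0.24, list mean 8.83 to 8.91 against 8.68 to 8.77). The shares called higher in the erythroid and plasmacytoid lists are near the 30.0% of clusters above the median level. No gene of the marker lists had a control mean at or below the array's background probes, and 1 germinal centre gene had such a mean in lymphoma spleens. The members, the defining plasma cell genes *Sdc1* and *Tnfrsf17* among them, were above those probes on all arrays. The part of any of these cell types in the members' rise was not tested.

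Some facts of the arrays touch all of the above. Arrays of the same genotype correlated at 0.992 to 0.995 over all clusters and arrays of different genotypes at 0.967 to 0.979. The median of the array's negative control probe sets was 6.43 to 6.52 on control and 5.96 to 6.16 on lymphoma arrays, and that of the positive ones 8.73 to 8.82 against 8.93 to 9.004; the part of this difference in the results was not tested. Below the negative median of the same array lay *Tnfrsf17* on 4 control and 3 lymphoma arrays and *Chac1* on 3 control arrays. So did *Prdm1* and *Mybl1* on all 4 control arrays, *Bub1* on 2 and *Rhag* on 1. The fold changes of these genes rest on dim values. No other member lay below that median, nor did any other gene named so far from the pathway and marker lists. *Vav1* itself, the edited gene, measured 10.29, 10.01, 10.10 and 10.32 on control arrays 1 to 4 and 10.52, 10.58, 10.48 and 10.39 on lymphoma arrays 1 to 4 (log2 fold change 0.31 ± 0.09 (SE), adjusted p = 0.0149), and its probes do not read the truncation. In lymphoma spleens *Kdm5d*, *Eif2s3y* and *Uty*, all on the Y chromosome, fell by 1.38, 1.28 and 1.25 on the log2 scale. Their means were 9.04, 10.73 and 9.33 in control and 7.67, 9.45 and 8.08 in lymphoma spleens. These levels were well above the background probes on all arrays of both groups, although the methods name female animals. The part of the animals' sex in the results was not tested. Nothing in the sources used here says how far the 4 arrays of a group were handled apart beyond being separate samples, and p-values measure the spread between them.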

How the data were processed

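Gene expression was measured in total RNA of the spleen in 4 samples from control and 4 from lymphoma-bearing animals with the Clariom S HT array of Affymetrix. The authors deposited log2 values after robust multichip average normalisation in R 3.6.3 (RMA, per the labels), 1 table of 29129 probe sets; these values were used as deposited. The gene of the knock-in that both groups share is not reported here. The labels name Trizol and the methods a column kit for the RNA extraction. No count depth exists for arrays, and their number limits the precision.

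The 6923 control probe sets were left out, and the 22206 transcript clusters were fitted with limma 3.58.1 (lmFit and eBayes, R 4.3.3; lymphoma minus control, no covariate) with Benjamini-Hochberg adjustment over all of them. Of the clusters 19572 carry 1 gene symbol in the platform annotation and 2634 none. A gene counted as at background where its value on an array (members) or its group mean (lists) did not exceed the median of the 23 background probe sets. The annotation of promoters came from RefSeq.

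The members, their roles and the gene lists were chosen with earlier results of these data known. All members are named with their log2 fold change; values on every array are given for plasma cell identity, for the sensors and the ATF4 arm, and for the 3 members of each other role with the largest absolute change; from each other list of the pathway up to 3 called rises and up to 2 called falls, and from each marker list the called gene with the largest absolute change. On simulated data with 22206 clusters, the fit called 74.6% of 67 clusters changed by 0.5 on the log2 scale and 100% of those changed by 1, with 13 false calls. Only 67, 67 and 66 clusters were changed there, by 0.5, 1 and 2, and all upward. The real data had 4039 clusters called higher and 3825 lower, so these figures do not carry over to them. Alternatives were cyclic loess, equal array medians, trend and robust moderation, array weights, an unmoderated test, filters on dim clusters, the mean of a gene's clusters, a threshold of 0.01, the replicate number as a block, and each array left out in turn.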

Additional observations from a re-analysis of the deposited data

Results flagged for a closer look

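In 150 groups of 4 arrays examined (members and other named genes), 7 held 1 array that stood apart from the other three by Dixon's criterion; chance alone gives about 1 in 20. *Xbp1* was 9.78 on control array 4, with the others at 10.01 to 10.03. *Tnfrsf17* was 6.20 on lymphoma array 2 (others 5.92 to 5.96), and *Dnajb11* was 9.38 on the same array (others 9.18 to 9.21). *Herpud1* was 10.88 on lymphoma array 4, close to the others at 10.83 to 10.84. *Eif2ak3* was 10.54 on control array 1 (others 10.37 to 10.39). Among genes that are not members, *Ero1b* was 10.42 on control array 3 (others 10.29 to 10.31) and *Rpn2* was 10.15 on lymphoma array 3 (others 10.29 to 10.30).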

How the results depend on the processing

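Over the 18 alternatives, between 24 and 31 members were called higher and 1 (*Eif2ak3*) was called lower in each. Of the 40 members 32 kept their call in every alternative that tested them and 8 did not: *Mzb1*, *Sdc1*, *Jchain*, *Hsp90b1*, *Dnajb9*, *Sec61b*, *Sel1l* and *Chac1*; no named gene turned its direction past the threshold. The median log2 fold change of the members lay between 0.41 (without control replicate 2) and 0.48 when 1 array was left out. With the replicate block, 30 members were higher and 1 lower, *Jchain* being gained (adjusted p = 0.0364). The same-numbered arrays of the groups correlated at 0.12, 0.04, 0.04 and 0.17 in their deviations from the group means. Arrays of different numbers ran from -0.14 to 0.06, and each lymphoma array correlated best with the control array of its own number. The labels do not say what a shared number means, and this was not tested. The main fit did not use the numbers. *Jchain* was also called with trend and robust moderation (0.0156), array weights (0.0414) and without the dimmest 50% of clusters (0.0351), *Hsp90b1* with trend and robust moderation (0.0155) and the unmoderated test (0.047). *Jchain* stayed uncalled in 13 of the 18 alternatives and *Hsp90b1* in 16. The unmoderated test ended the calls of *Sdc1* (0.0743), *Mzb1* (0.0553), *Dnajb9* (0.0734) and *Sec61b* (0.0534), and that of the erythroid gene *Rhag* (0.116), which was also lost with trend and robust moderation (0.101). *Dnajb9*, *Sec61b* and *Sel1l* lost theirs under cyclic loess (0.0558, 0.0947 and 0.0557) and equal array medians (0.0581, 0.0714 and 0.0516), which move the median of all clusters from -0.06 to -0.01 and -0.08. Fewer arrays lessen what the fit can call. Small changes are limited by 4 arrays a group, and no member was at the background probes.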

Other observations

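Outside the list, 26 measured genes held an ERSE or ERSE-II in their promoter window. Of the 19 with an ERSE none was called higher by limma (0 also at an unadjusted p under 0.05) and 4 were called lower (median log2 fold change -0.02), whereas of the 7 with an ERSE-II 4 were called higher and 1 lower (median 0.41); over all clusters 18.2% were called higher. The difference between the motifs was not tested. With 5 genes left out whose means were at or below the background probes in both groups (*Esp15*, *Esp16*, *Esp18*, *Esp36* and *Rnf151*), the counts stood for 15 and 6 genes. Of the genes kept, *Zfp57*, *Olfr59*, *Xlr3b*, *Xlr3c*, *Calr4*, *Tdrd9* and *Acnat2* lay below the median of the negative control probe sets on every array. The counts thus rest in part on dim genes, and the part of this in the difference between the motifs was not tested. The genes are named here after their values were seen. Those higher, all with an ERSE-II, were *Nucb1*, a calcium-binding protein of the Golgi apparatus, at 0.77, *Krtcap2*, a subunit of the oligosaccharyltransferase, at 0.59, *Lgalsl* at 0.53 and *Rcl1* at 0.41. Those lower were *Ero1b* at -0.72, *Pan2* at -0.50, *Rbm39* at -0.39, *Acacb* at -0.28 and *Acnat2* at -0.24.

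One of the 26, *Alg12*, a mannosyltransferase that builds the N-glycan precursor, lies head to head with *Creld2*, and both promoter windows hold the same ERSE on chromosome 15. *Alg12* measured 8.20, 8.25, 8.14 and 8.22 on control arrays 1 to 4 and 8.39, 8.23, 8.28 and 8.28 on lymphoma arrays 1 to 4. Its log2 fold change was 0.09 (adjusted p = 0.371), where that of *Creld2* was 1.23, from the same arrays. The difference between the neighbours was not tested.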
